A study of Drosophila melanogaster with 12 samples.

Results

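The miR-9 family of Drosophila was examined together with miR-79 and miR-306, the miRNAs that share a gene cluster with it. The members were chosen by name: every row of the deposited miRNA table whose hairpin was mir-9a, mir-9b, mir-9c, mir-79 or mir-306, with both arms of each hairpin. These were 5 of 238 hairpins and 10 of 408 mature miRNA rows. The samples were heads of Canton-S flies, a wild-type laboratory strain, with no transgene or mutation given in the labels. The flies were kept at 1 of 3 temperatures, 18°C, 25°C and 29°C. At each temperature heads were taken at 4 times of day, ZT3 and ZT9 in the light and ZT15 and ZT21 in the dark, where ZT counts hours from lights on. The age and sex of the flies were not given in the labels. From each sample, AGO1 was pulled down with an antibody and the small RNAs held by it were sequenced, which gave 12 libraries. The 4 libraries of a temperature served as its replicates (n = 4), and the question put to them was which AGO1-bound miRNAs of the head differ between temperatures.

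A miRNA is cut from a hairpin precursor whose 2 arms, called 5p and 3p, can each be loaded into an Argonaute protein, and in flies AGO1 carries most miRNAs. The seed, a short stretch near the start of the loaded arm, decides most of its pairing with mRNAs. The 5p arms of mir-9a, mir-9b and mir-9c share a seed that is also found in vertebrate miR-9. In flies, miR-9a-5p acts on senseless and keeps the number of sensory organ precursors in check, and it acts on Beadex (dLMO) in the wing. The hairpin of mir-79 is a homologue of the mir-9 hairpins in which the 3p arm is taken as the guide, and the seed of miR-79-3p is that of miR-4-3p, which matches the Brd box of Notch target genes. In Drosophila miR-306 and miR-79 are known to strengthen JNK-driven loss of tumor cells through RNF146.

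In the BDGP6.54 assembly with the Ensembl annotation, mir-9c (2L:16697924-16698015), mir-306 (2L:16698404-16698488), mir-79 (2L:16698554-16698650) and mir-9b (2L:16698744-16698834) lie in this order on the plus strand. The 4 hairpins span 911 bases, with gaps of 388, 65 and 93 bases between them, and all of them lie within introns of grapes (grp, 2L:16680054-16699926), which encodes the checkpoint kinase Chk1 and is read from the same strand. mir-9a lies apart, on the plus strand of chromosome arm 3L (3L:19565131-19565208), in an exon of the long noncoding RNA CR45916 (3L:19562636-19566533). The annotated mature arms are 22 or 23 bases long, so levels of different arms are compared here without a length correction.

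The unit of the deposited values is reads divided by 1 size factor per library, and the term value refers to it below. The libraries held 4423511 to 16840372 reads assigned to miRNAs, a 3.81-fold range, and the shallowest was 29°C ZT21. In it 3 reads corresponded to a value of 7.65, against 1.97 in the deepest library, 25°C ZT15. The counts of any 2 libraries of a temperature differed by far more than sampling noise (lowest chi-square per degree of freedom 235 over 18 pairs), so no library was treated as a copy of another. The labels do not say whether the libraries came from separate cultures, and replicates also differ in time of day, so p-values measure the spread between these libraries. In a whole head, fewer cells of a type and less miRNA per cell cannot be told apart. The samples hold no library of total small RNA, so a change in level and a change in loading into AGO1 cannot be told apart either.

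Together the 10 arms made up 1.51% ± 0.188 of the reads of a library (SD, n = 12), with a range of 1.19% to 1.90%, and nearly all of this came from the 5p arms of mir-9a, mir-9c and mir-9b. miR-9a-5p averaged a value of 89971 ± 14191 over the 12 libraries and ranked 15 by reads among the 403 rows kept after repeated rows were removed. miR-9c-5p averaged 45491 ± 7386 and ranked 26, and miR-9b-5p averaged 22741 ± 2976 and ranked 36. miR-306-5p, at 2333 ± 477, ranked 79. The main arm of mir-79 was much rarer: miR-79-3p averaged 151 ± 33.9 and ranked 152. Thus the 3 miRNAs with the shared miR-9 seed stood far above miR-306-5p and miR-79-3p, although mir-9c, mir-306, mir-79 and mir-9b are neighbours within 1 intronic cluster.

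The other arms were 3p arms in every hairpin except mir-79. miR-9b-3p averaged a value of 729 ± 104, miR-9a-3p 517 ± 85.7, miR-79-5p 78.4 ± 22.2, miR-9c-3p 14.8 ± 4.08 and miR-306-3p 10.0 ± 4.63 (SD, n = 12). In order of mean value the 10 arms ran miR-9a-5p, miR-9c-5p, miR-9b-5p, miR-306-5p, miR-9b-3p, miR-9a-3p, miR-79-3p, miR-79-5p, miR-9c-3p and miR-306-3p. The ranges over the 12 libraries overlapped between neighbours in this order for 3 pairs, namely miR-9b-3p with miR-9a-3p, miR-79-3p with miR-79-5p, and miR-9c-3p with miR-306-3p. Within single libraries the order held there too, with 1 tie of miR-79-3p and miR-79-5p at 18°C ZT9. The rarest arms rest on few reads, 7 to 24 per library for miR-9c-3p and 2 to 21 for miR-306-3p, and the value of miR-306-3p at 29°C ZT21 came from only 2 reads. Reads were counted without molecular identifiers, so read counts give counting error only, and a preference of the ligation for some ends could alter levels between miRNAs but is shared by all libraries for 1 miRNA.

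**Figure D1:**
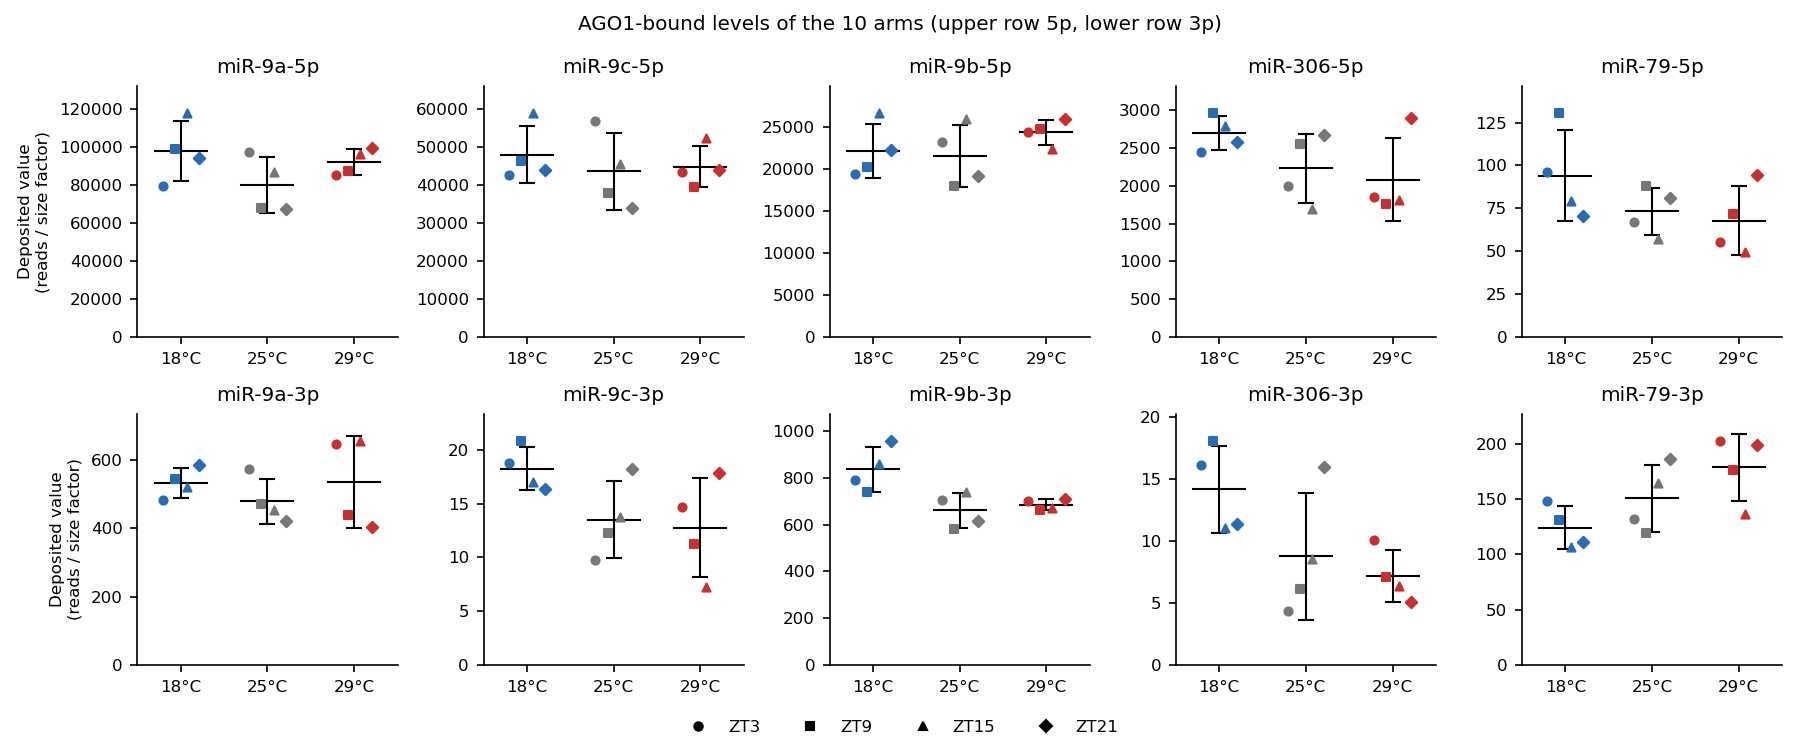
Deposited value (reads divided by the size factor of the library, linear axes from 0) of each of the 10 arms in the 12 libraries, by temperature, with the 5p arms in the upper panels and the 3p arms in the lower panels. Symbols stand for the time points, and the lines and bars give the mean and SD of 4 libraries. miR-79-3p lies between 106 and 148 at 18°C and between 137 and 203 at 29°C, with 1 library of 18°C above 1 of 29°C, and the 5p arms of mir-9a, mir-9c and mir-9b overlap at all temperatures.

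None of the miR-9 5p arms passed the test between temperatures. miR-9a-5p had values of 79735, 98855, 118030 and 94390 at 18°C (ZT3, ZT9, ZT15 and ZT21, the order used throughout), 97545, 67892, 86838 and 67416 at 25°C, and 85208, 87687, 96664 and 99390 at 29°C. Its libraries at 18°C thus reached both below and above those at 29°C, and the log2 fold change of 18°C over 29°C was 0.07 (SE 0.146, 95% CI -0.24 to 0.39, limma adjusted p = 0.745). miR-9c-5p had values of 42712, 46282, 59010 and 44006 at 18°C, 56952, 38018, 45616 and 34007 at 25°C, and 43591, 39544, 52280 and 43869 at 29°C. Its highest library was 18°C ZT15 and its lowest 25°C ZT21, and the log2 fold change of 18°C over 29°C was 0.09 (95% CI -0.25 to 0.44, limma adjusted p = 0.696). miR-9b-5p had values of 19421, 20326, 26729 and 22353 at 18°C, 23209, 17967, 25985 and 19169 at 25°C, and 24427, 24804, 22442 and 26061 at 29°C. The 29°C libraries lay within the range of the 18°C libraries, with a log2 fold change of -0.15 (95% CI -0.44 to 0.14, limma adjusted p = 0.420). For all 3 arms the interval left out a 2-fold difference in either direction, that is an absolute log2 fold change of 1.

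Summed over the shared seed, the miR-9 5p arms reached 167962 ± 25957 at 18°C, 145153 ± 27641 at 25°C and 161492 ± 10278 at 29°C (SD, n = 4 each), or 1.62% ± 0.212, 1.34% ± 0.160 and 1.45% ± 0.0758 of the reads of a library. Over the 12 libraries miR-9a-5p gave 56.8% ± 1.71 of this pool, miR-9c-5p 28.8% ± 1.86 and miR-9b-5p 14.5% ± 1.46. The share of miR-9a-5p never left the range of 54.8% to 59.7%. Within it, the share ran from 56.2% to 59.7% at 18°C, 54.8% to 55.9% at 25°C and 55.6% to 58.7% at 29°C. Every 18°C library thus lay above every 25°C library in this share, while the shares of miR-9c-5p and miR-9b-5p overlapped. These differences in share were not tested. By level, the highest library stood 1.75-fold above the lowest for miR-9a-5p, 1.74-fold for miR-9c-5p and 1.49-fold for miR-9b-5p.

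miR-306-5p, the third most abundant product of the cluster after miR-9c-5p and miR-9b-5p, had values of 2451, 2961, 2786 and 2571 at 18°C, 1998, 2545, 1697 and 2672 at 25°C, and 1849, 1757, 1815 and 2898 at 29°C. At 29°C 3 libraries lay below every 18°C library, and ZT21, the shallowest library, lay above all but 1 of them. The log2 fold change of 18°C over 29°C was 0.40 (SE 0.176, 95% CI 0.02 to 0.78), with an unadjusted p of 0.0396 and a limma adjusted p of 0.0834. Without 29°C ZT21 it was 0.57 with a limma adjusted p of 0.00613, the only one of 22 alternatives to pass (range of adjusted p 0.00613 to 0.212). Its other arm, miR-306-3p, had values of 16.1, 18, 11.0 and 11.4 at 18°C, 4.32, 6.13, 8.53 and 16.0 at 25°C, and 10.1, 7.05, 6.34 and 5.10 at 29°C. The 18°C libraries lay above the 29°C libraries, but the reads were few and the log2 fold change of 0.90 (95% CI 0.08 to 1.73) had a limma adjusted p of 0.0752. Of 21 alternatives 3 passed for miR-306-3p, among them the fit without 25°C ZT21 (adjusted p = 0.0450, range 0.0450 to 0.225).

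miR-79-3p was the member that differed between 18°C and 29°C. It had values of 148, 131, 106 and 111 at 18°C, 132, 119, 165 and 186 at 25°C, and 203, 176, 137 and 199 at 29°C, from 78 to 262 reads per library. The means were 124 ± 19.3 at 18°C and 179 ± 30.3 at 29°C (SD, n = 4 each), with 1 overlap, since 18°C ZT3 lay above 29°C ZT15. miR-79-3p was lower at 18°C by a log2 fold change of -0.52 (SE 0.188, 95% CI -0.92 to -0.12, limma adjusted p = 0.0400). This call sat near the threshold. It was lost on leaving out 18°C ZT9 (adjusted p = 0.0549), 18°C ZT15 (0.113), 18°C ZT21 (0.0870), 25°C ZT15 (0.0505), 29°C ZT3 (0.115), 29°C ZT9 (0.0752) or 29°C ZT21 (0.0730), and the adjusted p ranged from 0.0171 to 0.115 over 22 alternatives, of which 13 passed. It was also lost without the filter on low values (adjusted p = 0.0625) and with time point as a block (0.0549). The direction was the same in all of them, with log2 fold changes between -0.64 and -0.45.

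The other arm of the same hairpin did not follow. miR-79-5p had values of 96.4, 131, 79.0 and 70.3 at 18°C, 67.0, 87.8, 57.1 and 81.3 at 25°C, and 55.7, 71.9, 49.8 and 94.4 at 29°C. The groups overlapped, and the log2 fold change of 18°C over 29°C was 0.47 (95% CI -0.06 to 1.00, limma adjusted p = 0.148). Without 29°C ZT21 miR-79-5p passed, at 0.64 with an adjusted p of 0.0425 (range over 21 alternatives 0.0425 to 0.375). Without 18°C ZT9, its highest library, the log2 fold change was 0.30 (adjusted p = 0.375).

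Among the 3p arms of the mir-9 hairpins, miR-9b-3p had values of 791, 739, 862 and 960 at 18°C, 707, 583, 742 and 616 at 25°C, and 700.0, 664, 670 and 712 at 29°C. Every 18°C library lay above every 29°C library, by a log2 fold change of 0.28 (SE 0.119, 95% CI 0.03 to 0.54, limma adjusted p = 0.0748). miR-9a-3p had values of 482, 546, 520 and 585 at 18°C, 574, 471, 453 and 422 at 25°C, and 647, 439, 657 and 403 at 29°C, and its log2 fold change of 18°C over 29°C was 0.02 (95% CI -0.34 to 0.39, limma adjusted p = 0.947). The 29°C libraries of miR-9a-3p were split, with ZT3 and ZT15 above and ZT9 and ZT21 below all 18°C libraries. miR-9c-3p had values between 16.3 and 20.8 at 18°C, between 9.73 and 18 at 25°C and between 7.24 and 17.9 at 29°C, with a log2 fold change of 18°C over 29°C of 0.54 (95% CI -0.11 to 1.19, limma adjusted p = 0.170).

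Counted together, 1 of the 10 members passed between 18°C and 29°C at an adjusted p under 0.05, against 39.8% of the 244 miRNAs tested, and 4 of the 10 had an unadjusted p under 0.05, against 49.6% of the 244. No member had a log2 fold change over 1 in size along with an adjusted p under 0.05, a limit met by 16% of the miRNAs tested. The libraries of the 2 temperatures did not overlap for 2 of the 10 members, miR-306-3p and miR-9b-3p, against 38.9% of all. The median log2 fold change was 0.19 over the members and 0.03 over all miRNAs tested. All 10 arms passed the filter on low reads.

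Between 18°C and 25°C 0 of the 10 members passed with limma, against 19.7% of the 244 miRNAs, and 1 member, miR-9b-3p, had an unadjusted p under 0.05, against 34% of the 244. Its log2 fold change of 18°C over 25°C was 0.34 (95% CI 0.08 to 0.60, limma adjusted p = 0.0598), and it passed in DESeq2 (adjusted p = 0.0421, the lowest of 22 alternatives that reached up to 0.162), while edgeR called 0 members. miR-9a-5p, with a mean of 97752 ± 15794 at 18°C and 79923 ± 14827 at 25°C, had a log2 fold change of 0.29 (95% CI -0.02 to 0.61, adjusted p = 0.177), and miR-79-3p had one of -0.27 (95% CI -0.67 to 0.13, adjusted p = 0.330). The median was 0.29 over the members and 0.03 over all tested. No member was free of overlap, against 24.6% of all.

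Between 29°C and 25°C 0 members passed with limma, edgeR or DESeq2, against 11.9% of the 244 miRNAs passing with limma. An unadjusted p under 0.05 was had by 0 members, against 24.2% of the 244. Their log2 fold changes of 29°C over 25°C ran from -0.16 for miR-306-3p to 0.25 for miR-79-3p (95% CI -0.15 to 0.65), with a median of 0.06 against -0.02 over all tested. No member was free of overlap, against 16.8% of all. The 18°C over 29°C and 18°C over 25°C comparisons share the 18°C libraries, and those with 25°C share the 25°C libraries, so they are not independent of each other. For 5 of the 10 members the mean at 25°C lay between the means at 18°C and 29°C, against 58.6% of the 244 miRNAs.

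**Figure D2:**
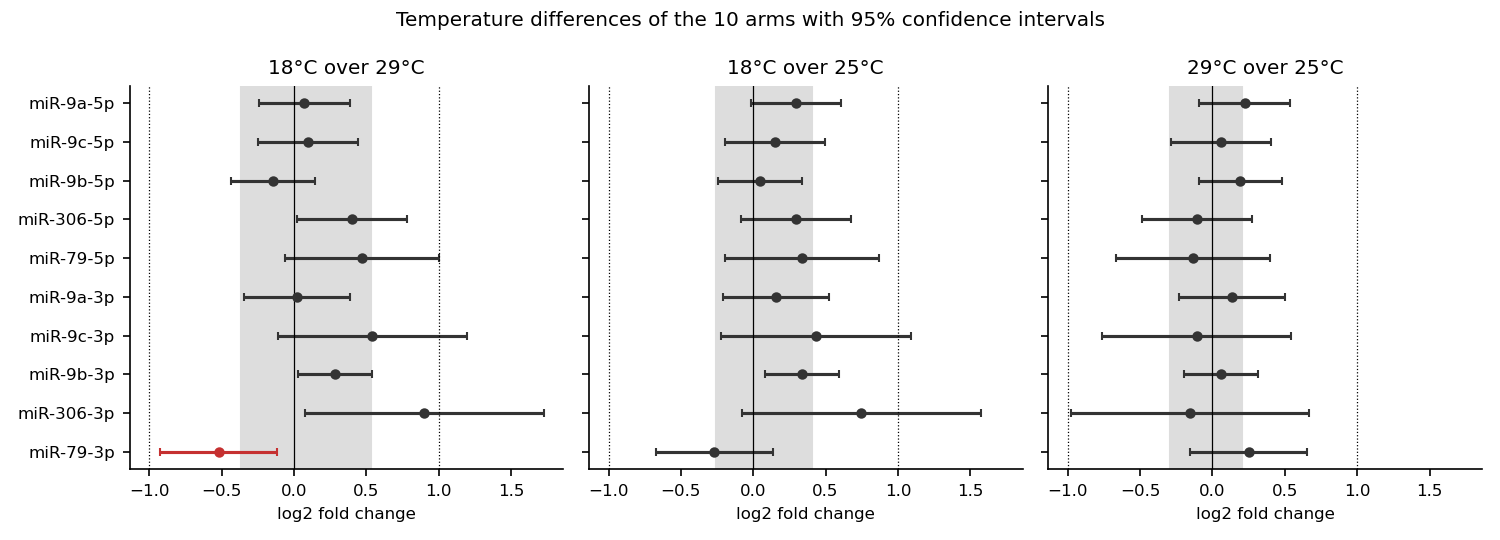
Log2 fold change of each arm, as 18°C over 29°C, 18°C over 25°C and 29°C over 25°C (points), with 95% confidence intervals from limma (bars). The shaded band holds the middle 50% of all miRNAs tested and the dotted lines mark a log2 fold change of 1 in size. miR-79-3p, in red, is the only arm with an adjusted p under 0.05, at -0.52 for 18°C over 29°C.

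The ratio of the arms within a hairpin compares products of 1 precursor within 1 library, so the size factor cancels. mir-79 had the most even arms of the 5 hairpins: its 3p arm took 66.5% of its reads and its 5p arm 33.5%. The balance moved with temperature. At 18°C mir-79 had 108, 94, 93 and 99 reads of the 5p arm beside 166, 94, 125 and 156 reads of the 3p arm, at 25°C 62, 86, 87 and 107 beside 122, 117, 251 and 245, and at 29°C 72, 51, 55 and 37 beside 262, 125, 151 and 78. At 18°C ZT9 the arms were equal, whereas at 29°C ZT3 the 3p arm was in the largest excess of the 12 libraries.

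The log2 ratio of 5p over 3p of mir-79 averaged -0.42 ± 0.300 at 18°C, -1.03 ± 0.454 at 25°C and -1.41 ± 0.334 at 29°C (SD, n = 4 each). It ran from -0.65 to 0 at 18°C and from -1.86 to -1.07 at 29°C, with no overlap. The difference of 18°C minus 29°C was 0.99 on the log2 scale (SE 0.245, 95% CI 0.46 to 1.52, limma adjusted p = 0.00437). It passed in each of 16 alternatives, every left-out library among them (adjusted p 0.00166 to 0.0262, difference 0.84 to 1.11). The difference of 18°C minus 25°C was 0.61 (95% CI 0.08 to 1.13, adjusted p = 0.0733), and it passed without 25°C ZT9 (0.80, adjusted p = 0.0278). Over its 16 alternatives the adjusted p of 18°C minus 25°C ran from 0.0278 to 0.232, and the 29°C minus 25°C difference was -0.38 (95% CI -0.91 to 0.14, adjusted p = 0.305).

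mir-9b moved the other way, and there too the rarer arm was relatively higher at 18°C. Its log2 ratio of 5p over 3p averaged 4.72 ± 0.184 at 18°C, 5.02 ± 0.0849 at 25°C and 5.15 ± 0.0699 at 29°C (SD, n = 4 each). The 18°C libraries ran from 4.54 to 4.95 and the 29°C libraries from 5.07 to 5.22, without overlap, and the difference of 18°C minus 29°C was -0.43 (SE 0.141, 95% CI -0.73 to -0.12, limma adjusted p = 0.0221). The call was lost without 18°C ZT3 (adjusted p = 0.0566) and without 18°C ZT21 (0.0616), and it passed in the other 15 of 17 alternatives (range 0.0131 to 0.0616). Neither arm of mir-9b passed by its own level.

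The other 3 hairpins did not pass. The difference of 18°C minus 29°C in the log2 ratio of 5p over 3p was 0.05 for mir-9a (95% CI -0.41 to 0.51), -0.45 for mir-9c (95% CI -1.26 to 0.36) and -0.49 for mir-306 (95% CI -1.23 to 0.24), with limma adjusted p of 0.858, 0.323 and 0.227. The wide intervals of mir-9c and mir-306 go with 3p arms of few reads. With 5 reads added to each arm in place of 0.5, the difference was -0.01 for mir-306 and -0.19 for mir-9c. Without 29°C ZT21 that of mir-306 was -0.23, and without 29°C ZT15 that of mir-9c was -0.13. In total 2 of the 5 hairpins passed, against 56.2% of the 89 hairpins tested. The less abundant arm was relatively higher at 18°C in 4 of the 5 hairpins (80%) and in 68 of the 89 (76.4%). Of the 4, mir-9c and mir-306 were not called, and mir-9a, the exception, turned to -0.09 without 29°C ZT3. Between 18°C and 25°C 0 of 5 passed (24.7% of all), with an unadjusted p under 0.05 for mir-79 alone (39.3% of all), and between 29°C and 25°C 0 of 5 passed (16.9% of all), with 0 under 0.05 before adjustment (32.6% of all).

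**Figure D3:**
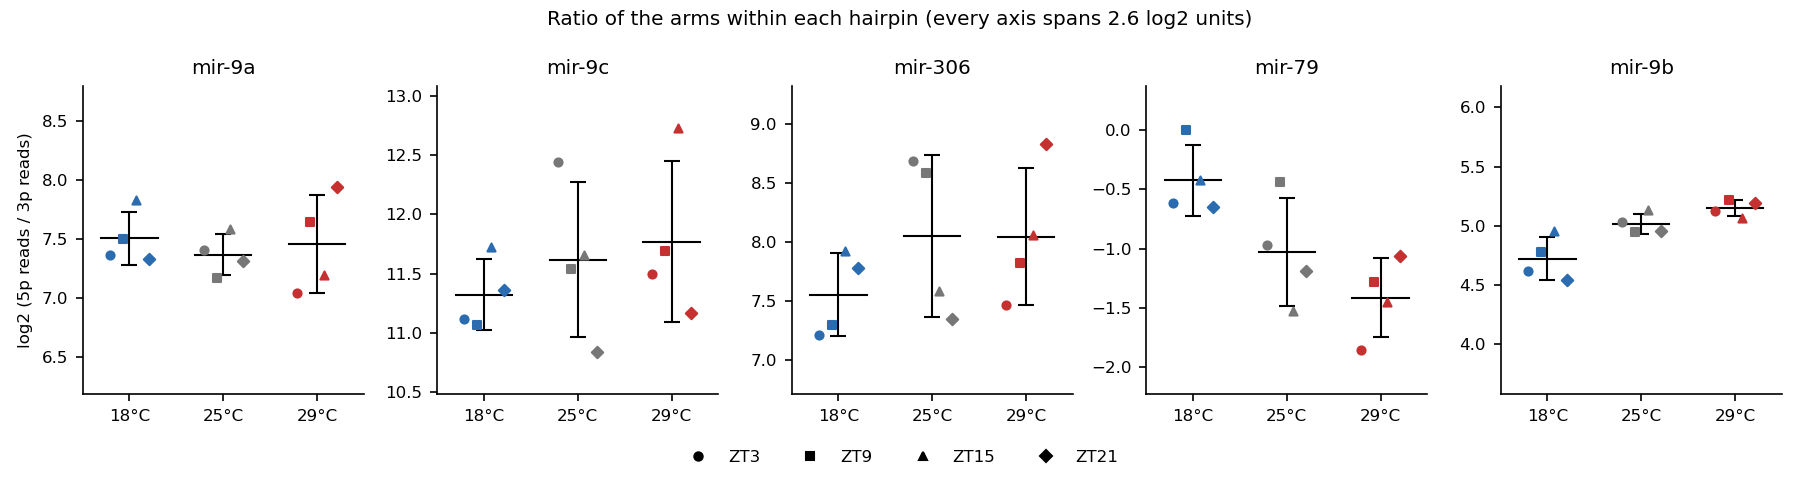
Log2 ratio of 5p reads over 3p reads within each hairpin in the 12 libraries, by temperature, with a y axis of equal span in each panel. Symbols stand for the time points, and the lines and bars give the mean and SD of 4 libraries. mir-79 runs from -0.65 to 0 at 18°C and from -1.86 to -1.07 at 29°C, and mir-9b from 4.54 to 4.95 and from 5.07 to 5.22.

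Ratios between the main arms of different hairpins ask whether products of 1 cluster keep their proportion. The 10 pairs of main arms were compared between 18°C and 29°C by exact two-sided permutation tests. An exact permutation test of 4 libraries against 4 cannot go below p = 0.0286. By these exact permutation tests, 1 pair had an unadjusted p under 0.05 and 0 passed after adjustment over the 10 pairs. Most of the pairs would have to reach that floor together before any could pass the adjustment. A change in a single main arm enters fewer pairs than that. The 0 after adjustment therefore does not show that proportions were kept. The largest difference was that of miR-306-5p over miR-79-3p, whose hairpins lie 65 bases apart. Their log2 ratio averaged 4.44 ± 0.283 at 18°C, 3.88 ± 0.427 at 25°C and 3.52 ± 0.321 at 29°C (SD, n = 4 each), and 18°C minus 29°C was 0.92 with no overlap (exact permutation p = 0.0286, adjusted p = 0.143). The ratio of miR-9a-5p over miR-9c-5p, from 2 chromosome arms, averaged 1.02 ± 0.0944 at 18°C, 0.88 ± 0.0940 at 25°C and 1.05 ± 0.142 at 29°C (18°C minus 29°C -0.02, exact permutation p = 0.743). The ratio of miR-9b-5p over miR-306-5p had a difference of -0.55 and that of miR-9a-5p over miR-79-3p one of 0.60 (exact permutation p = 0.0571 each, adjusted p = 0.143 each).

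Time of day showed no member past the threshold. Across the 4 time points, with temperature in the fit, 0 of the 10 members passed with limma, edgeR or DESeq2 and 0 had an unadjusted p under 0.05, against 0% of the 252 miRNAs passing with limma, 12 of them with an unadjusted p under 0.05 and 1 passing in DESeq2. The lowest limma adjusted p of a member was 0.863, and the spread between the highest and lowest time point mean was largest for miR-79-5p, at 0.62 on the log2 scale. Over the alternatives the adjusted p fell as low as 0.0633 for miR-306-5p and 0.0852 for miR-79-5p, and no member passed. Between dark (ZT15 and ZT21) and light (ZT3 and ZT9), 0 of 10 members passed with limma, edgeR or DESeq2, and 0 had an unadjusted p under 0.05. Here 0% of the 235 miRNAs passed with limma, 5 had an unadjusted p under 0.05 and 1 passed in DESeq2. The log2 fold changes of dark over light ran from -0.21 for miR-79-5p (95% CI -0.65 to 0.22) to 0.13 for miR-9b-5p (95% CI -0.10 to 0.37). For miR-9a-5p the dark mean was 93788 and the light mean 86154, a log2 fold change of 0.11 (95% CI -0.15 to 0.37).

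Across the 12 libraries, the strongest correlation between arms joined miR-9 homologues of different chromosome arms, and the next one joined neighbours in the cluster. Of 45 pairs of arms, 2 had an adjusted p under 0.05 (Pearson correlation of log2 values, 100000 permutations, adjusted over the 45 pairs). The first was miR-9c-5p with miR-9a-5p, encoded on different chromosome arms, with r = 0.85 (permutation p = 0.00086, adjusted 0.0193) and Spearman rho = 0.81 (permutation p = 0.00228, adjusted 0.0888). Without the 2 libraries farthest from the median of miR-9c-5p r was 0.81, and for deviations from the temperature means it was 0.89. The second was miR-79-5p with miR-306-5p, neighbours in the cluster, with r = 0.81 (permutation p = 0.00085, adjusted 0.0193) and rho = 0.73 (permutation p = 0.0098, adjusted 0.0904). Without the 2 libraries farthest from the median of miR-79-5p r was 0.78, and for deviations from the temperature means it was 0.73. By rank, neither pair passed the adjustment. The share of such pairs over all miRNAs was not computed, so the 2 pairs cannot be called particular to the group. With miRNAs outside the group the highest r was 0.87 for miR-306-5p, 0.82 for miR-9c-5p and 0.67 for miR-9a-5p.

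Over the 12 libraries the other pairs were weaker. This did not hold for deviations from the temperature means, where miR-79-5p with miR-306-5p had r = 0.73. There miR-9c-3p with miR-79-3p had r = 0.82 and miR-9b-5p with miR-9b-3p had 0.77. miR-9b-5p with miR-9a-5p had r = 0.71 (permutation p = 0.0087, adjusted 0.0717) and rho = 0.65 (adjusted 0.188). Its r was 0.39 without the 2 libraries farthest from the median of miR-9b-5p, and 0.80 for deviations from the temperature means. Between products of the cluster, miR-9c-3p had r = 0.72 with miR-306-5p, 0.71 with miR-306-3p and 0.71 with miR-79-5p (adjusted permutation p = 0.0717 each). Between other products of the cluster, miR-9c-5p had r = -0.12 with miR-306-5p (adjusted permutation p = 0.875) and -0.49 with miR-79-3p (adjusted 0.481). The arms of mir-79 had r = -0.15 with each other (adjusted permutation p = 0.833). All points share library depth and scaling, and a pair of arms in 1 library is not independent of the other pairs.

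**Figure D4:**
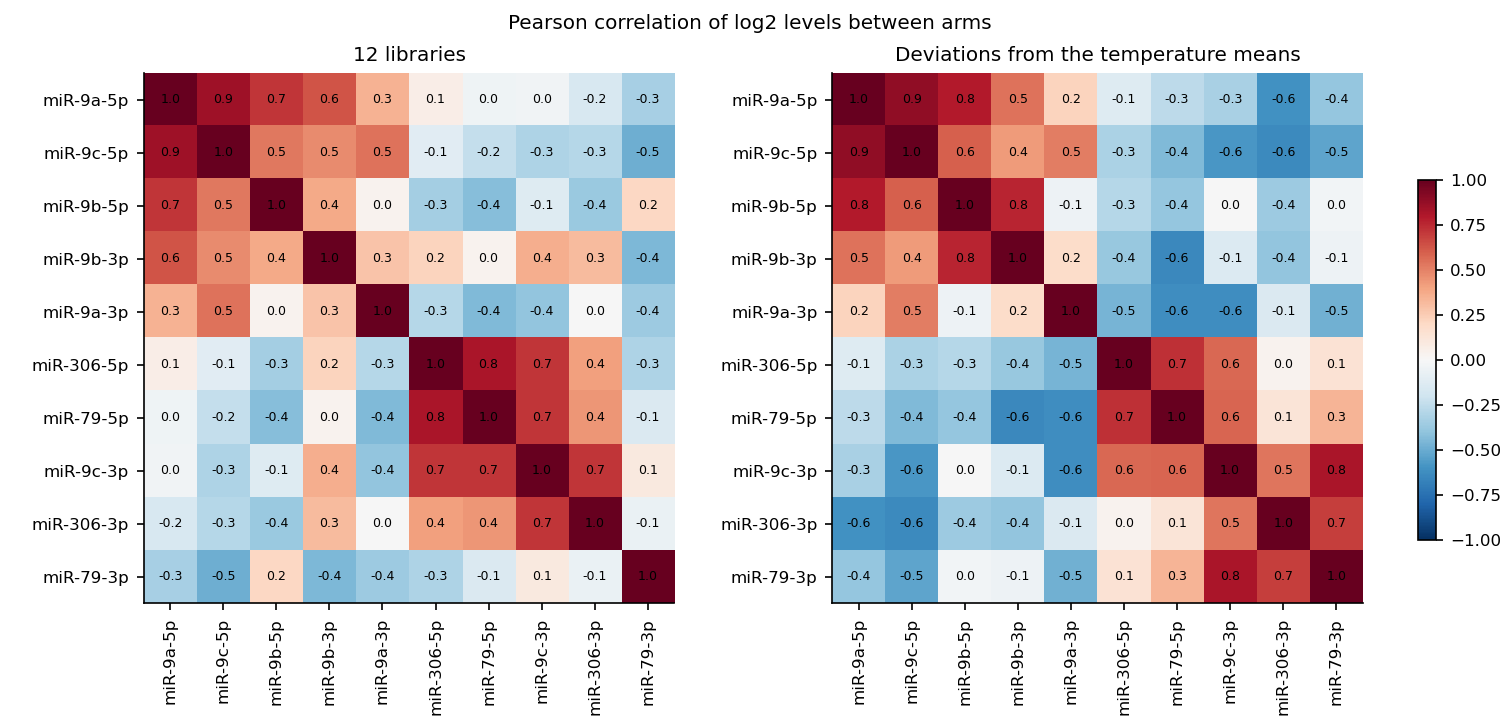
Pearson correlation of log2 values between each pair of the 10 arms, over the 12 libraries (left) and for deviations from the mean of each temperature (right), with color and rounded number giving r. miR-9a-5p and miR-9c-5p stand at 0.85 and 0.89, and miR-79-5p and miR-306-5p at 0.81 and 0.73.

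By the same measure, Pearson r of log2 values over 12 libraries, the most similar miRNAs outside the group were found for each main arm, as a description. For miR-9a-5p they were miR-263a-5p (r = 0.67), which protects sensory bristles from cell death in flies, miR-966-5p (0.66) and miR-31b-5p (0.65). For miR-9c-5p they were miR-31a-5p (0.82), miR-31b-5p (0.81) and miR-263a-5p (0.76), and for miR-9b-5p they were miR-960-3p (0.70), miR-263a-5p (0.68) and miR-375-3p (0.67). miR-263a-5p thus appeared for each of the 3 miR-9 5p arms. These arms also correlated with each other (r = 0.85, 0.71 and 0.53), so its appearances are not independent. miR-306-5p was most similar to miR-2c-3p (0.87), miR-315-3p (0.86) and miR-993-5p (0.86), and miR-79-3p to miR-13a-3p (0.85), miR-932-5p (0.81) and miR-927-5p (0.80). Some of these miRNAs were rare: miR-960-3p had a mean value of 9.22, miR-315-3p 25.5 and miR-966-5p 29.0. Each r was picked as among the highest of many miRNAs over 12 libraries, and none was tested.

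miR-79-3p belongs by its seed to the miRNAs that pair with the K, Brd and GY boxes in the mRNAs of Notch target genes. Of 12 other mature arms listed for such miRNAs, 11 were tested, in 14 rows because some come from more than 1 locus. The arm not tested was miR-4-5p, the opposite arm of miR-4-3p. Whether each listed arm, miR-5-5p among them, has a seed that matches a box was not checked. Between 18°C and 29°C miR-2c-3p, a K-box miRNA, was higher at 18°C (1510 ± 266 at 18°C against 888 ± 251 at 29°C, a log2 fold change of 0.79, limma adjusted p = 0.00766). The K-box miRNAs miR-13a-3p and miR-13b-3p were lower at 18°C (log2 fold changes -0.55 and -0.36, limma adjusted p = 0.00315 and 0.00497). miR-13a-3p averaged 623 ± 67.2 at 18°C and 912 ± 101 at 29°C, a difference close in size to that of miR-79-3p. miR-4-3p, with the seed of miR-79-3p, ranged from 20.9 to 318 over the 12 libraries, and its log2 fold change of -0.14 had an SE of 1.08. miR-7-5p, the GY-box miRNA, had a log2 fold change of -0.43 (adjusted p = 0.0552). The median of the 14 rows was 0.06 beside 0.03 over all tested. Rows of 1 miRNA from more than 1 locus had nearly the same values, so the median counts such miRNAs repeatedly. Between 18°C and 29°C 1 row passed as higher at 18°C and 2 as lower, against 39.8% of the 244 miRNAs tested. None passed in 18°C over 25°C or 29°C over 25°C, against 19.7% and 11.9% of the 244.

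Markers of neurons, of muscle, of sensory organs and photoreceptors, and of testis and early embryo were read from the same libraries. The neuron list held 1 miRNA, miR-124-3p, so it stands for that miRNA and not for neurons as a whole. miR-124-3p was higher at 18°C than at 29°C (176 ± 39.1 at 18°C against 107 ± 26.3 at 29°C, a log2 fold change of 0.72, limma adjusted p = 0.0390). Of the 6 testis miRNAs listed, 1 could be tested, miR-964-5p, and it was lower at 18°C (18 ± 3.4 at 18°C against 55.5 ± 13.0 at 29°C, a log2 fold change of -1.54, limma adjusted p = 0.00129). Their summed value was 27.7 to 37.6 at 18°C, 20.4 to 54.5 at 25°C and 67.9 to 118 at 29°C, and miR-963-5p was at 0 in every library of 18°C and 25°C. The 2 muscle miRNAs (195931 to 486992 at 18°C, 255052 to 666663 at 25°C, 278703 to 526082 at 29°C) and the 3 of sensory organs and photoreceptors (216695 to 296815, 231750 to 355454 and 271256 to 374913) had 0 passing with limma in any of the comparisons. The summed early embryo miRNAs ranged from 1584 to 5856 at 18°C, 1010 to 5571 at 25°C and 644 to 4110 at 29°C, with 0 of the 5 names tested passing with limma. miR-124-3p and miR-964-5p thus moved between 18°C and 29°C beside miR-79-3p and the arm ratios of mir-79 and mir-9b, and their part in those results was not tested.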

How the data were processed

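Small RNAs bound to AGO1 were sequenced from heads of Canton-S flies at 3 temperatures and 4 time points (12 libraries). The authors assigned reads to miRBase 21 with miRExpress; its version, the trimming and the length limits are not given in the sources used here. The deposited values are a signal, reads divided by 1 size factor per library. All 4896 values came out as whole reads (100%, within 0.01), and the factors equalled the median of ratios that DESeq2 uses. From 408 rows, 5 repeats of another row were removed.

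Members and lists were chosen with earlier results of these data known. Temperatures were compared with limma 3.58.1 in R 4.3.3 on log2(value + 1), with trend and robust variance, after filterByExpr of edgeR on the recovered reads, with Benjamini-Hochberg adjustment over all miRNAs tested. Fold changes are on that scale, which understates those of rare arms. Time of day and dark against light were fitted with temperature as a covariate. Arm ratios used log2((5p reads + 0.5)/(3p reads + 0.5)) in hairpins with a mean of at least 10 reads of each arm. Ratios between main arms were compared by exact permutation, and correlations by 100000 permutations. Alternatives were pseudocounts of 0.5 and 10, no filter or a mean of at least 100 reads, TMM scaling, edgeR 4.0.16, DESeq2 1.42.0, plain variance, each library left out, the 8 libraries of a comparison, and a time point block. All 10 arms were named, along with the 3 most correlated other miRNAs for each main arm, a list of miRNAs for Notch boxes, and markers of neurons, muscle, sensory organs, early embryo and testis. Deviations of same time points correlated between 29°C and 25°C in all 4 pairs (r 0.23 to 0.44), but in 0 of 4 pairs over 0.1 between 18°C and 25°C (-0.46 to -0.20) or 18°C and 29°C (-0.29 to 0.06). The limma, edgeR and DESeq2 fits were tested on simulated data.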

Additional observations from a re-analysis of the deposited data

Results flagged for a closer look

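miR-306-5p at 29°C had 1 library far from the others: the value at ZT21 was 2898, from 1136 reads, against 1757 to 1849 in the other 3 libraries, a gap of 0.919 of the range of the group. ZT21 was the shallowest library, and its part in this value was not tested. The log2 ratio of miR-9c-5p over miR-79-3p at 29°C stood apart at ZT15, at 8.57 against 7.75 to 7.80, a gap of 0.931 of the range. These were the 2 such cases in 75 groups of 4 libraries (25 quantities), where chance alone at 1 in 20 would give 3.75.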

How the results depend on the processing

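Directions of called results held in all alternatives. Between 18°C and 29°C, where 1 member passed, 0 passed without the filter and with time point as a replicate block (miR-79-3p, adjusted p = 0.0549), 2 passed with plain variance and with only the 8 libraries, and 0 to 2 on leaving out each library. Between 18°C and 25°C, DESeq2 called 1 member in place of 0. For the arm ratio of 18°C minus 29°C, where 2 hairpins passed, 1 (mir-9b) passed when both arms needed a mean of at least 100 reads, which removed mir-79 from the test, and 1 to 2 on leaving out each library. For 18°C minus 25°C, mir-79 passed with the replicate block (adjusted p = 0.0492), 1 hairpin in place of 0, and 0 to 1 passed on leaving out each library. Of all alternative values of single members, hairpins and pairs, 1371 kept their direction or stayed short of the threshold, 8 newly passed and 11 no longer passed, and apart from what the alternatives themselves remove the causes were not tested. The same time points deviated together between 29°C and 25°C but not between 18°C and either. For 29°C over 25°C the replicate block changed no call of a member or hairpin, and it gave 26 calls over all miRNAs in place of 29. Over all miRNAs, calls of 29°C over 25°C numbered 29, and 19 without 25°C ZT3 or without 29°C ZT9. Time of day gave 0 calls, 23 without 18°C ZT21, 1 without 29°C ZT21 and 1 in DESeq2, no member among them, and dark against light gave 0 and 1 in DESeq2. Arm ratio calls of 18°C minus 25°C numbered 22, 5 with no minimum of reads, and 14 without 18°C ZT3 or without 25°C ZT3, and those of 29°C minus 25°C numbered 15, and 8 with no minimum. Depth limits miR-9c-3p and miR-306-3p most, with at most 24 and 21 reads in a library.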
